A study of Mus musculus with 14 samples.

Results

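The cardiac myosin genes described here are the 3 heavy chain genes Myh6, Myh7 and Myh7b, the 4 light chain genes Myl2, Myl3, Myl4 and Myl7, and the light chain kinase gene Mylk3. They were taken by gene symbol from the table of raw read counts, in which they are 8 of 54532 genes. All 8 members passed the filter on low counts that left 15876 genes for testing, Myl7 only through the TAC libraries: 5 of 10 TAC libraries and 0 of 4 sham libraries reached its minimum of 0.428 CPM. Polyadenylated RNA was sequenced from ventricular heart tissue of mice collected 1 week after surgery. Mice were wild type, or carried a knockout of Ccl24, which encodes a CC-type chemokine, given in the labels as CCL24 KO. Surgery was transverse aortic constriction (TAC), a ligature around the aorta that raises the pressure load on the left ventricle, or a sham operation. The groups were wild type sham (n = 2), wild type TAC (n = 6), knockout sham (n = 2) and knockout TAC (n = 4). The sources used here do not give sex, age, strain background or the design of the knockout allele. The numbers of libraries equal the numbers of mice in the design text, so each library was taken as 1 mouse.

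Myosin is the motor of the thick filament of the sarcomere. Each motor has a pair of heavy chains, and each heavy chain carries an essential and a regulatory light chain on its neck. In the adult mouse ventricle the fast alpha heavy chain (Myh6) predominates over the slow beta heavy chain (Myh7), and a shift toward Myh7 under pressure load is a classical sign of remodelling. Myl3 is the essential and Myl2 the regulatory light chain of the ventricle, while Myl4 and Myl7 are their counterparts of the atrium and the embryonic heart. Mylk3 is the kinase of cardiac muscle that phosphorylates the regulatory light chain.

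Libraries held 17072262 to 33123052 counts, and the 8 members together took 2.66% to 4.10% of them. Levels are given as CPM, the usual measure of counts scaled to library size, here with TMM factors, and 3 counts correspond to 0.0899 to 0.172 CPM. Ccl24 had 61 and 72 counts after sham and 56 to 105 counts in 5 of the wild type TAC libraries. It had 3 to 8 counts in the 6 knockout libraries. The library labelled wild type TAC replicate 1 also had 3 counts of Ccl24, which matches the knockout range and goes against its label. Results for the members that turn on this library are therefore given with and without it. Results for other named genes are given only with it, and whether they turn on it was not tested. Mitochondrially encoded genes took 10.1% to 17.1% of counts in the wild type TAC libraries, 14.9% to 19.2% in the knockout TAC libraries, 18.5% and 18.8% after sham in wild type mice and 20.5% and 23.7% in knockout mice.

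The heavy chain genes also house a family of microRNAs, which are shown because their hosts are the 3 heavy chain members. On GRCm38, Myh6 (ENSMUSG00000040752) lies at chr14:54941921-54966927 and Myh7 (ENSMUSG00000053093) at chr14:54970684-54994626, both on the minus strand and 3756 bases apart. Myh7b (ENSMUSG00000074652) lies at chr2:155611212-155634307 on the plus strand. Each gene carries a microRNA in an intron: miR-208a in Myh6, miR-208b in Myh7 and miR-499 in Myh7b. Their mature sequences from RefSeq (GRCm38.p6) follow, with the seed (bases 2 to 8) in capitals.
mmu-miR-208a-3p: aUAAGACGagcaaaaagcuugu
mmu-miR-208b-3p: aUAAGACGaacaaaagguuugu
mmu-miR-499-5p: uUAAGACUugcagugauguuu
miR-208a and miR-208b share the seed UAAGACG and have the same base at 19 of 22 positions. The seed of miR-499 is UAAGACU. Polyadenylated RNA libraries do not measure mature microRNAs: the host introns gave 3 to 29 counts at Mir208a and 0 to 4 at Mir208b per library, and Mir499 was listed at 0 in all 14.

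The light chain genes are dispersed. Myl2 (ENSMUSG00000013936) lies at chr5:122100951-122113472, Myl3 (ENSMUSG00000059741) at chr9:110741861-110769798 and Myl4 (ENSMUSG00000061086) at chr11:104550663-104595753, all on the plus strand. Myl7 (ENSMUSG00000020469) lies at chr11:5896637-5898782 and Mylk3 (ENSMUSG00000031698) at chr8:85324303-85386345, both on the minus strand.

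Myh6 and Myh7 are near-identical copies over long stretches, which limits how reads of the pair can be assigned. Of the 50-base windows of the Myh6 transcript, 22.6% also occur in the Myh7 transcript, falling to 11.4% of 100-base windows. No 50-base window was shared between Myh7b and either gene, between Myl3 and Myl4, or between Myl2 and Myl7. The longest identical stretch of the Myh6 and Myh7 transcripts runs over 245 coding bases. It crosses from exon 30 to exon 31 of Myh6 (chr14:54948327-54948725, minus strand) and from exon 32 to exon 33 of Myh7 (chr14:54974947-54975347, minus strand). It is shown in capitals between 10 neighbouring bases of Myh6 on either side, because a read that falls inside it fits both genes.
Myh6-201: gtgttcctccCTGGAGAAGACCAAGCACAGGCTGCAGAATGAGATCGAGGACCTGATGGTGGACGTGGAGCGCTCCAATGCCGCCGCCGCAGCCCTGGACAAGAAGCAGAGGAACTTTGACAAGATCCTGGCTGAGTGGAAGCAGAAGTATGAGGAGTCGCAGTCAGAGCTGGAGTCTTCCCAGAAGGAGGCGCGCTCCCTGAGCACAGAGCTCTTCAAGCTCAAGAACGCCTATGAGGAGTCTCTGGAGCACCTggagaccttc
The sources used here do not say how reads that fit both genes were treated, or whether strand was read. The values of Myh6 and Myh7 are uncertain to that extent.

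Per length of transcript, the ventricular light chains were the most abundant members. Length was that of the transcript that GENCODE numbers lowest for each gene. In wild type sham libraries the level per kilobase of that transcript was 11069 ± 126 CPM for Myl2, 6031 ± 180 for Myl3, 3789 ± 115 for Myh6 and 450.1 ± 77.9 for Myh7 (SD, n = 2). Mylk3 followed at 159.0 ± 3.76, Myh7b at 27.8 ± 1.65, Myl4 at 4.52 ± 1.04 and Myl7 at 0.165 ± 0.131 CPM per kilobase (SD, n = 2). The ranges of neighbours in this order did not overlap in either sham group. Every library kept the order except wild type TAC replicate 7, in which Myl4 stood above Myh7b. The upper part of the order depends on the length used: per kilobase of all annotated exons, Myh6 stood above Myl3 in 8 libraries and above Myl2 in 1 of these. On that scale Myl7 also stood above Myl4 in 2 libraries. The plot of levels per kilobase shows all 14 libraries.

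**Figure D1:**
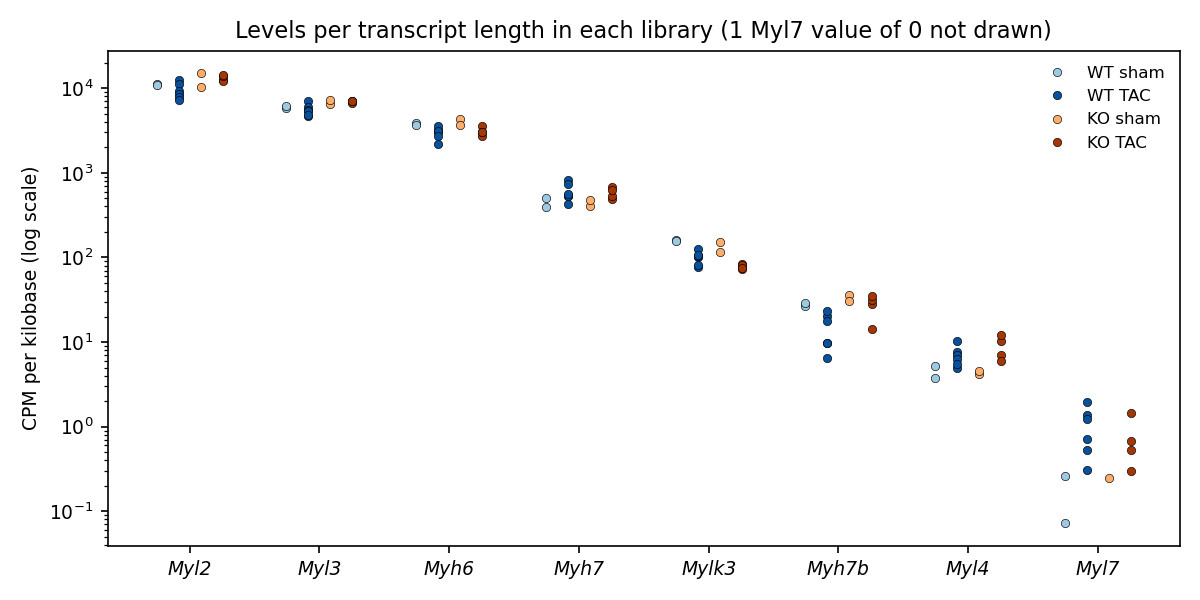
Level of each member in CPM per kilobase of transcript (log axis), 1 point per library, coloured by group, with members in the order of their wild type sham levels. Myl2 libraries lie between 7314 and 15030 CPM per kilobase and Myl7 libraries at or below 1.94, and the Myl7 value of 0 in 1 knockout sham library is not drawn.

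TAC was set against sham in each genotype to find which myosin genes responded to pressure load, and averaged over both genotypes with each given equal weight. In wild type mice 1 of 8 members passed the test (edgeR quasi-likelihood, adjusted p under 0.05), against 12.2% of all tested genes. In knockout mice it was also 1 of 8, against 4.08%. That member was Mylk3 in both genotypes, lower after TAC, as were 5.8% of all tested genes in wild type and 1.73% in knockout mice, while 6.36% and 2.36% were higher. Averaged over genotypes 4 of 8 passed, against 24.2% of all tested genes: Mylk3 and Myh6 were lower (2 of 8, against 11.6%) and Myl4 and Myl7 higher (2 of 8, against 12.7%). Since Myl7 entered the test only through the TAC libraries, its place in these counts is no support for a difference. TAC and sham libraries did not overlap for 4 of 8 members in wild type mice (Myh6, Myh7b and Mylk3 lower, Myl7 higher), against 33% of all tested genes. They did not overlap for 5 of 8 in knockout mice (Myh6 and Mylk3 lower, Myh7, Myl4 and Myl7 higher), against 34.6%. The median log2 fold change of the members was -0.17 in wild type mice, 0.04 in knockout mice and -0.07 on average, beside 0.01, -0.01 and 0.00 for all tested genes. The averaged comparison uses the same libraries as the 2 single ones and is not a separate line of evidence.

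**Figure D2:**
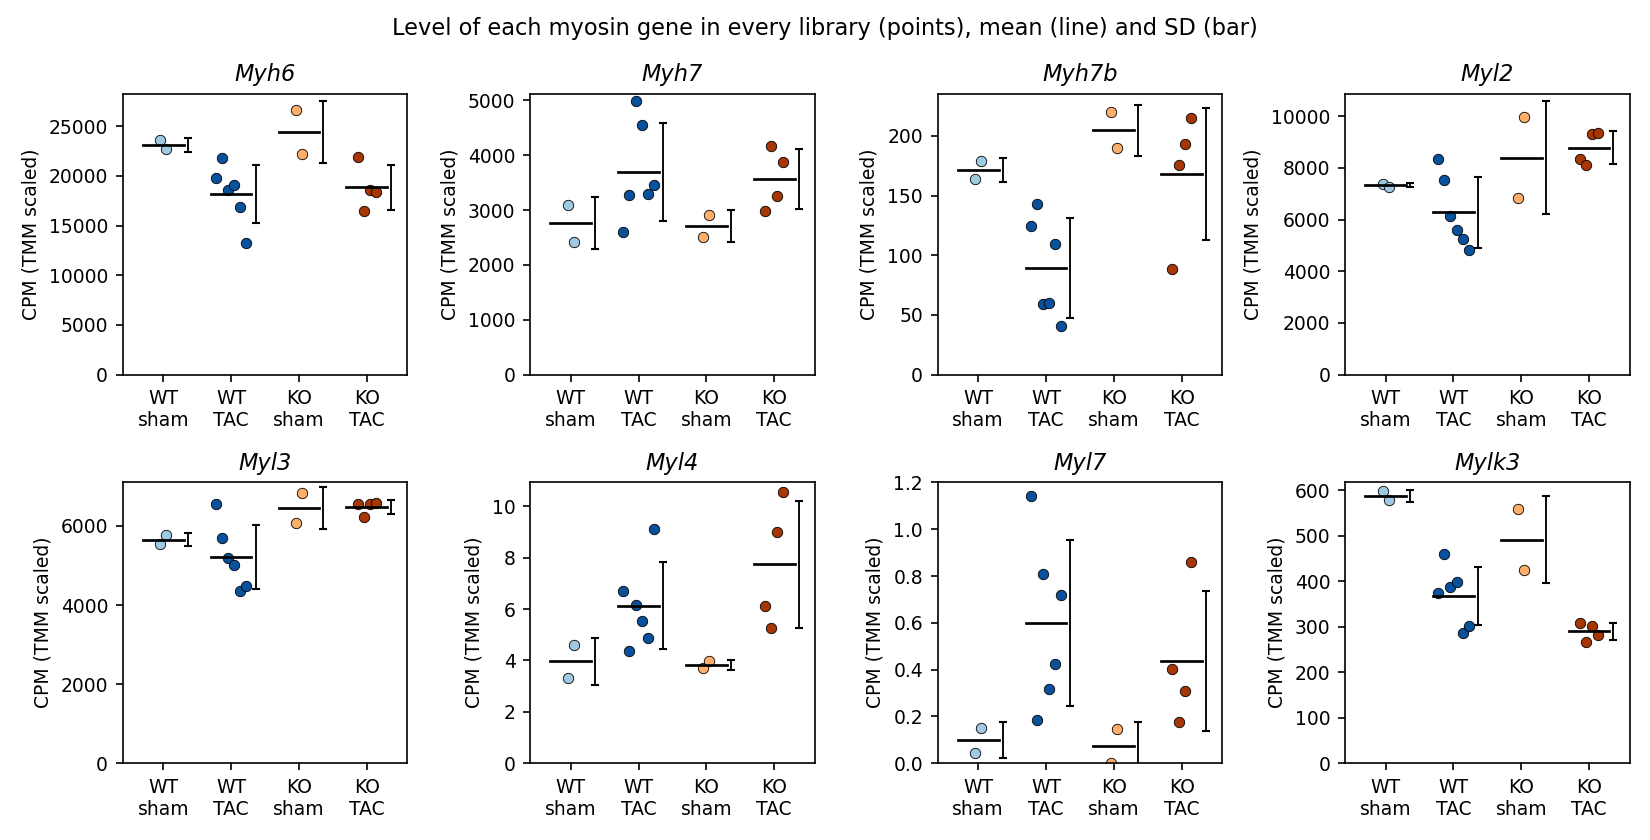
CPM of each member by group, 1 point per library, with the group mean (line) and SD (bar, cut at 0 for Myl7). Mylk3 lies between 267 and 459 in the TAC libraries and between 424 and 598 in the sham libraries, and Myh7b runs from 40.4 to 143 in wild type TAC and from 88.7 to 215 in knockout TAC.

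After TAC the heavy chain pair shifted toward Myh7. Myh6, the alpha heavy chain, was at 23656 and 22663 CPM in the wild type sham libraries and 26662 and 22237 in the knockout sham libraries. After TAC it ranged from 13236 to 21771 in wild type mice (median 18837), and stood at 21930, 16462, 18550 and 18413 in knockout mice. All 10 TAC libraries thus lay below all 4 sham libraries. Myh6 fell by 0.36 on the log2 scale averaged over genotypes (SE 0.13, edgeR adjusted p = 0.0458), with values of -0.35 in wild type mice (SE 0.17, edgeR adjusted p = 0.184) and -0.38 in knockout mice (SE 0.18, edgeR adjusted p = 0.252). The averaged call did not hold in 10 of 14 fits without 1 library each, with adjusted p up to 0.218 without knockout sham replicate 1. In whole tissue, fewer cardiomyocytes and less RNA per cardiomyocyte cannot be told apart.

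Myh7, the beta heavy chain, was at 3099 and 2423 CPM after sham in wild type mice and 2509 and 2915 in knockout mice. After TAC it ranged from 2592 to 4991 in wild type mice (median 3376), and stood at 2987, 4162, 3254 and 3879 in knockout mice. The groups overlapped in wild type mice, where the lowest TAC library was the one labelled replicate 1, and did not overlap in knockout mice. The averaged log2 fold change was 0.41 (SE 0.16) and did not pass the test (edgeR adjusted p = 0.0676). It passed without wild type TAC replicate 1, at 0.45 (edgeR adjusted p = 0.0233).

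The isoform balance was read within each library as the share of Myh7 in the counts of Myh6 and Myh7 together, which does not depend on library scaling. The share was 11.6% and 9.66% in the wild type sham libraries and 8.60% and 11.6% in the knockout sham libraries. After TAC it was 17.02% ± 4.03 in wild type mice (SD, n = 6; range 11.6% to 21.2%), and stood at 11.99%, 20.2%, 14.9% and 17.4% in knockout mice. The wild type TAC library with the lowest share was again replicate 1, whose 11.6% equalled the higher of the sham libraries to the printed digits. Averaged over genotypes the Myh7 to Myh6 ratio was 1.70-fold higher after TAC, a log2 difference of 0.76 (exact two-sided permutation test within genotype, p = 0.00476, adjusted p = 0.0286 over 24 tests). The log2 differences were 0.76 in wild type mice (exact permutation p = 0.0714, smallest possible 0.0357) and 0.77 in knockout mice (exact permutation p = 0.133, smallest possible 0.0667). The averaged difference lay between 0.64 and 0.88 when any 1 library was left out, with exact permutation p from 0.00317 to 0.0286. The summed level of Myh6 and Myh7 was 25921 ± 1180 CPM after sham and 21911 ± 3038 after TAC in wild type mice (SD, n = 2 and 6), and 27162 ± 2842 and 22409 ± 1813 in knockout mice (SD, n = 2 and 4).

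**Figure D3:**
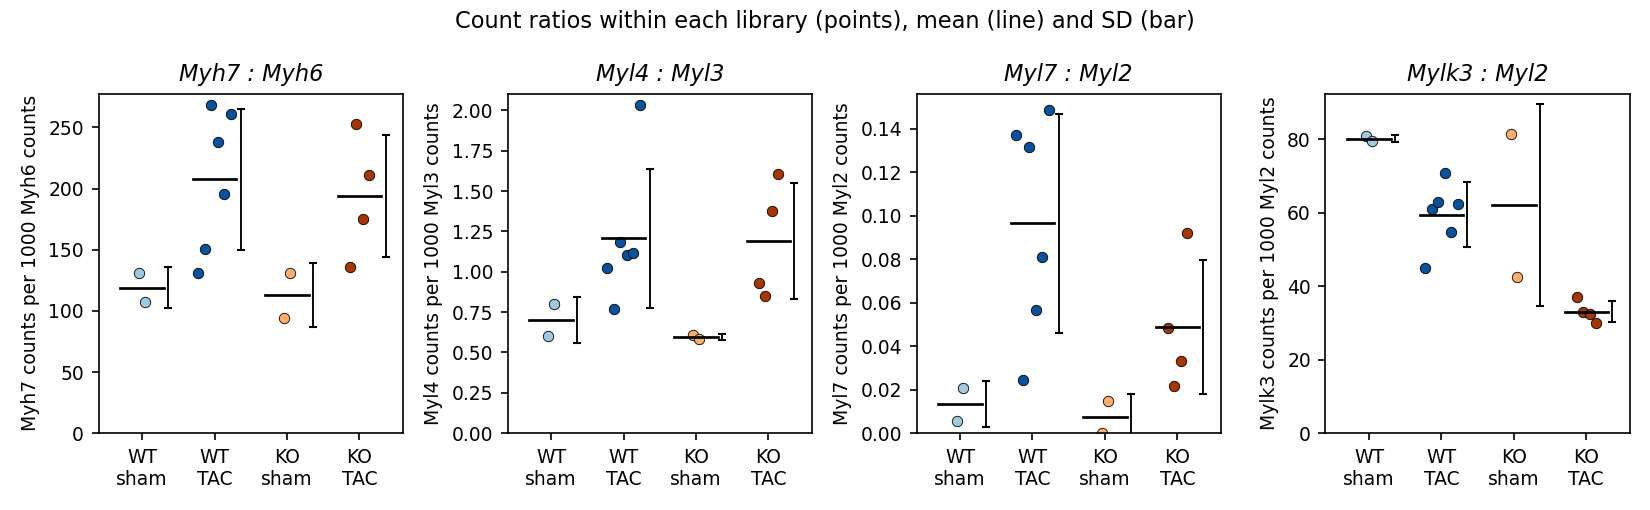
Counts of the first gene per 1000 counts of the second in each library (points), with the group mean (line) and SD (bar, cut at 0), for the 4 pairs compared. The Myh7 to Myh6 panel shows 131 to 269 in wild type TAC and 136 to 253 in knockout TAC, and the Mylk3 to Myl2 panel shows knockout TAC at 30.0 to 37.0, below every wild type library.

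Myh7b, a slow-type heavy chain gene that is the host of miR-499, varied more between libraries than any other member apart from Myl7, by 5.45-fold from lowest to highest. It was at 164 and 179 CPM in wild type sham libraries and ranged from 40.4 to 143 in wild type TAC libraries (median 84.6), all below sham. Knockout libraries stood at 220 and 189 after sham and at 88.7, 175, 193 and 215 after TAC, so those groups overlapped. The log2 fold change for TAC was -0.94 in wild type mice (SE 0.43, edgeR adjusted p = 0.167) and -0.28 in knockout mice (SE 0.47, edgeR adjusted p = 0.784). Neither passed the test, nor did the difference between them, 0.66 (SE 0.66, edgeR adjusted p = 0.997).

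RNAs transcribed within or antisense to the heavy chain genes were read alongside. Mhrt, a long non-coding RNA antisense to Myh7, was at 48.7 ± 0.651 CPM after sham and 28.3 ± 11.02 after TAC in wild type mice (SD, n = 2 and 6). The knockout values were 63.2 ± 5.48 and 55.6 ± 24.5 CPM (SD, n = 2 and 4). Gm31251, an annotated antisense transcript further along Myh7, was at 40.8 ± 1.06 and 21.2 ± 9.55 CPM in wild type mice and 57.6 ± 0.423 and 37.0 ± 10.8 in knockout mice. The averaged log2 fold changes after TAC were -0.49 for Mhrt (SE 0.28, edgeR adjusted p = 0.220) and -0.79 for Gm31251 (SE 0.27, edgeR adjusted p = 0.0550), and neither passed. The exons of Mhrt, Gm31251 and Gm29015 overlap those of Myh7 by 484, 523 and 142 bases. Even if every count of these genes stood for reads of the Myh7 position, they would be 0.745% to 4.77% of the Myh7 counts of a library. Taking them all away left the log2 difference of Myh7 after TAC at 0.42 in both genotypes, in place of 0.40 and 0.39. Reads of the shared exons that were counted for neither gene are not covered, so these values do not bound the effect of the overlap.

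**Figure D4:**
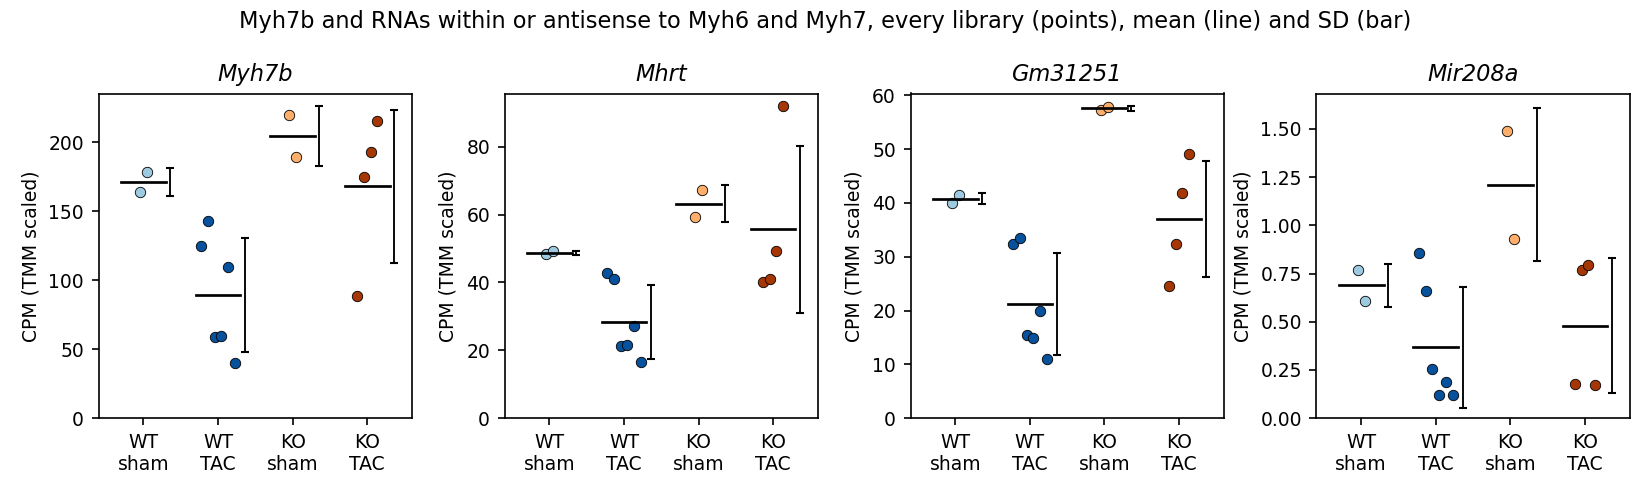
CPM of Myh7b, of the Myh7 antisense RNAs Mhrt and Gm31251, and of the Mir208a locus within Myh6, by group, with 1 point per library, the group mean (line) and SD (bar). Both antisense RNAs were lower in every wild type TAC library than in the wild type sham libraries, and in knockout TAC 1 library of Mhrt reached 91.9 CPM. Gm31251 was also separate in knockout mice, at most 49.2 CPM after TAC and at least 57.3 after sham. Ranges were separate for 33% of all tested genes in wild type and 34.6% in knockout mice.

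The ventricular light chains had the smallest averaged fold changes of the 8 members after TAC. Myl2, the regulatory light chain, was at 7386 and 7268 CPM after sham and ranged from 4842 to 8355 after TAC in wild type mice (median 5876). In knockout mice it was at 6854 and 9950 after sham, and at 8351, 8106, 9297 and 9363 after TAC. TAC and sham libraries overlapped in both genotypes. Myl3, the essential light chain, was at 5531 and 5770 after sham and ranged from 4351 to 6555 after TAC in wild type mice (median 5098). Knockout libraries had 6070 and 6824 after sham and 6549, 6222, 6554 and 6588 after TAC, again with overlap. The averaged log2 fold changes were -0.08 for Myl2 (95% interval -0.38 to 0.22, edgeR adjusted p = 0.721) and -0.05 for Myl3 (-0.28 to 0.17, edgeR adjusted p = 0.743).

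The atrial light chains were scarce and higher after TAC. Myl4, the atrial essential light chain, was at 3.33 and 4.62 CPM after sham and ranged from 4.37 to 9.11 after TAC in wild type mice (median 5.85), where the lowest TAC library lay below the higher sham library. For knockout mice the values were 3.70 and 3.97 after sham and 6.11, 5.28, 9.01 and 10.6 after TAC, without overlap. Myl4 rose by 0.82 on the log2 scale averaged over genotypes (SE 0.22, edgeR adjusted p = 0.0139), with 0.63 in wild type mice (edgeR adjusted p = 0.163) and 1.00 in knockout mice (edgeR adjusted p = 0.0831). The averaged call was lost without wild type sham replicate 1 (edgeR adjusted p = 0.0809) or knockout sham replicate 1 (0.0744). The knockout value passed without wild type TAC replicate 7 (1.01, edgeR adjusted p = 0.0315). Against its ventricular counterpart, Myl4 stood at 0.701 ± 0.140 counts per 1000 Myl3 counts after sham and 1.21 ± 0.429 after TAC in wild type mice (SD, n = 2 and 6), and at 0.595 ± 0.0199 and 1.19 ± 0.360 in knockout mice (SD, n = 2 and 4). The averaged log2 difference of this ratio was 0.84 and did not pass after adjustment (exact permutation p = 0.0143, adjusted p = 0.0686).

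Myl7, the atrial regulatory light chain, had 1 and 3 counts in the wild type sham libraries and 0 and 3 in the knockout sham libraries, all within the limit of 3 counts. In the wild type TAC libraries it had 5 to 24 counts, and in the knockout TAC libraries 9, 5, 7 and 15. Every TAC library was thus above every sham library, at levels of at most 1.14 CPM. Summed over libraries and scaled by their sizes, the rate after TAC was 6.39 times that after sham in wild type mice (exact 95% interval 2.41 to 24.0, 92 against 4 counts) and 5.27 times in knockout mice (1.66 to 26.7, 36 against 3 counts). These intervals cover counting error only: counts were pooled over libraries, so the differences between mice are left out. Reads that carry no molecular identifier may also repeat the same molecule, which the intervals do not allow for. Over libraries, the averaged fitted log2 fold change of 2.50 passed the test (SE 0.72, edgeR adjusted p = 0.0200; 0.0117 in the fit without a filter on low counts), and it failed without wild type sham replicate 1 (edgeR adjusted p = 0.0924) or knockout sham replicate 1 (0.1001). In wild type mice alone it passed only without TAC replicate 2 (edgeR adjusted p = 0.0461, against 0.0819 with all libraries). The averaged log2 ratio of Myl7 to Myl2 was 2.52 higher after TAC (exact permutation p = 0.00238, the smallest possible, adjusted p = 0.0286). With sham counts of 0 to 3, the size of this difference depends on the count added to each gene before logs were taken. Read as a share of both genes' counts, the wild type difference had an exact permutation p of 0.107, against 0.0357 on the log2 scale. The ratio uses the same few Myl7 counts and is not separate evidence.

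Other markers of atrial cardiomyocytes were read beside Myl4 and Myl7. Of 12 listed, 10 were tested. Averaged over genotypes 1 was higher and 2 were lower, against 12.7% and 11.6% of all tested genes, with a median log2 fold change of -0.14. Kcnj5 and Kcnj3, subunits of the acetylcholine-gated potassium channel, fell by 0.79 and 1.28, and Dkk3 rose by 1.48 (edgeR adjusted p = 0.000542, 0.00338 and 0.00861). The summed level of the list was 164 to 192 CPM over the 4 sham libraries and 120 to 160 CPM over the 10 TAC libraries. Levels differed widely within the list. Sln, the atrial sarcolipin, had group means of 0.0761 to 0.597 CPM, with a highest value of 1.49 CPM in knockout TAC, and Bmp10 of 0.0735 to 0.101. Kcnj5 and Kcnj3 had means of 71.4 and 47.6 CPM in wild type sham.

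Mylk3 fell after TAC in both genotypes. It was at 598 and 578 CPM after sham and ranged from 287 to 459 after TAC in wild type mice (median 381). In knockout mice it was at 559 and 424 after sham and at 309, 267, 301 and 281 after TAC. TAC libraries lay below sham libraries in both genotypes. Mylk3 fell by 0.68 on the log2 scale in wild type mice (SE 0.15, edgeR adjusted p = 0.0147), by 0.76 in knockout mice (SE 0.16, edgeR adjusted p = 0.0161) and by 0.72 averaged over genotypes (SE 0.11, edgeR adjusted p = 0.000589). The difference between the genotypes' responses was -0.09 (95% interval -0.57 to 0.39, edgeR adjusted p = 0.997). The wild type call was lost without either sham library (edgeR adjusted p = 0.159 and 0.170). The knockout call was lost without the first knockout sham library (0.399) and without TAC replicate 2 of that genotype (0.0580). The averaged call held in all 14 fits that left out 1 library.

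**Figure D5:**
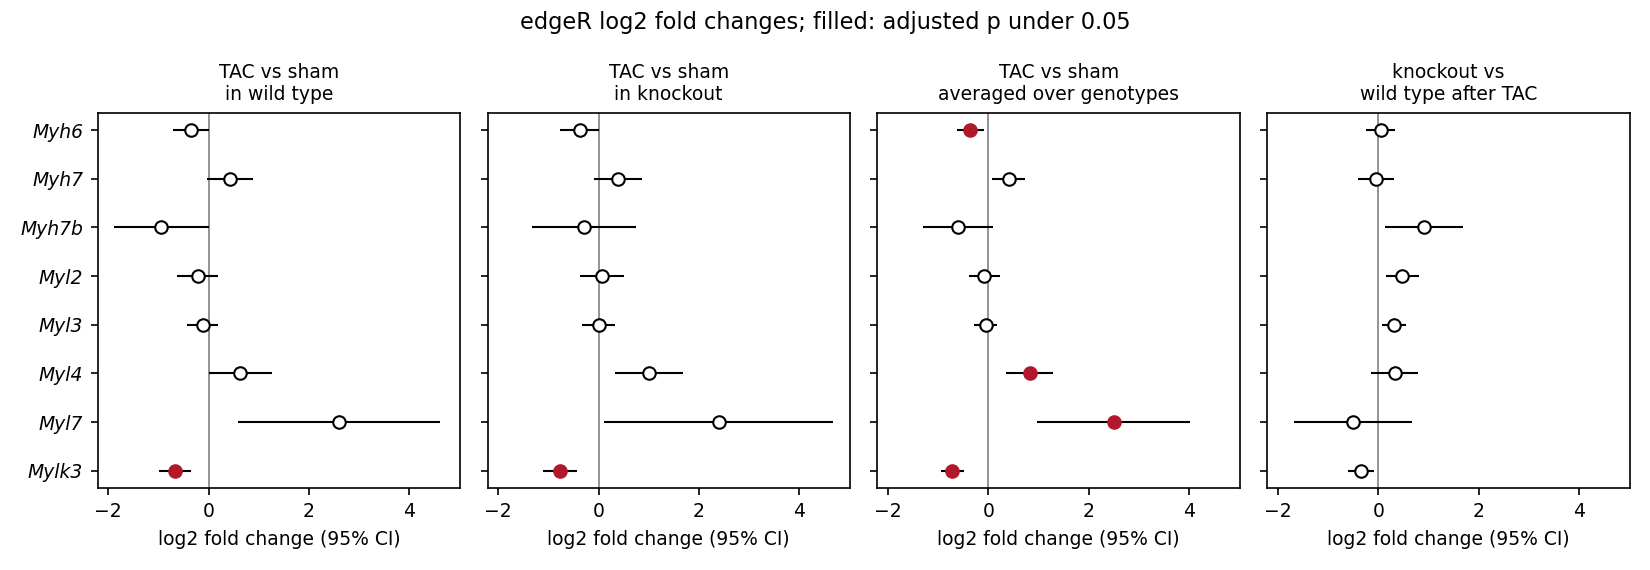
Log2 fold change of each member in 4 comparisons (points) with its 95% interval (lines) from the edgeR fit. Filled points passed an adjusted p of 0.05: Mylk3 in the 3 comparisons of TAC with sham, and also Myh6, Myl4 and Myl7 in the average over genotypes.

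Read per 1000 counts of its substrate's gene Myl2, Mylk3 was at 80.9 and 79.5 in the wild type sham libraries and 81.5 and 42.6 in the knockout sham libraries, so the knockout pair lay far apart. After TAC it was 59.5 ± 8.84 in wild type mice (SD, n = 6; range 44.9 to 71.0) and 37.0, 32.97, 32.4 and 30.0 in knockout mice. The averaged log2 difference after TAC was -0.64 (exact permutation p = 0.00238, the smallest possible, adjusted p = 0.0286).

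Knockout and wild type mice were then compared after TAC, to ask whether the members differed between genotypes in the loaded heart. Differences already present after sham also enter this comparison. No member passed the test (edgeR, 0 of 8, against 9.34% of all tested genes, 3.71% higher and 5.63% lower in knockout). An unadjusted p under 0.05 was found for 4 of 8 (Myl2, Myl3, Myh7b and Mylk3), against 28.8% of all tested genes. DESeq2 passed 2, Myl2 and Myl3, and limma voom passed 1, Myl2. The CPM ranges of the groups overlapped for all 8 members, whereas they were separate for 6.53% of all tested genes. Wild type TAC libraries also enter the comparison of TAC with sham, so these values are not independent of those above.

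Myl2 had a log2 difference of 0.48 between knockout and wild type after TAC (SE 0.15, edgeR adjusted p = 0.0571) and Myl3 of 0.31 (SE 0.12, edgeR adjusted p = 0.0892). In both genes the highest value of the wild type TAC group came from the library labelled replicate 1. It lay inside the knockout TAC range for Myl2 (8355 against 8106 to 9363 CPM) and for Myl3 (6555 against 6222 to 6588 CPM). Without it, Myl2 was higher by 0.58 (edgeR adjusted p = 0.00943) and Myl3 by 0.39 (edgeR adjusted p = 0.0131), in a fit that called 18.5% of all tested genes. Myl2 also passed without wild type TAC replicate 2 (0.55, edgeR adjusted p = 0.0397). Myh7b had a log2 difference of 0.91 (SE 0.35, edgeR adjusted p = 0.117) and Mylk3 of -0.35 (SE 0.12, edgeR adjusted p = 0.0819). Mylk3 passed without wild type TAC replicate 7 (-0.39, edgeR adjusted p = 0.0467). For the heavy chain pair the differences were 0.05 for Myh6 (95% interval -0.24 to 0.34) and -0.05 for Myh7 (-0.40 to 0.30). The Myh7 to Myh6 ratio differed by -0.08 on the log2 scale (exact permutation p = 0.767).

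Within libraries the ratio of Mylk3 to Myl2 was lower in knockout than in wild type mice after TAC. It joins 2 opposite differences given above, 0.48 for Myl2 and -0.35 for Mylk3, and is not separate from them. Among single tested genes, 6.53% had separate ranges in this comparison. The share among other pairs of genes was not tested, so the separation is not shown to be particular to this pair. The Mylk3 to Myl2 ratio in knockout TAC libraries, at most 37.0 per 1000, lay below every wild type TAC library, of which the lowest was replicate 1 at 44.9. The ratio was 0.560-fold of wild type, a log2 difference of -0.84 (exact permutation p = 0.00476, the smallest possible, adjusted p = 0.0286). Without replicate 1 it was -0.91 (exact permutation p = 0.00794). The knockout sham libraries stood at 81.5 and 42.6, above and below the wild type TAC range. After sham the log2 difference of the ratio between knockout and wild type was already -0.44. The interaction of genotype and surgery on the ratio was -0.39 (exact permutation p = 0.588). Leaving out 1 knockout sham library decided that value: it was -0.86 (exact permutation p = 0.00159, unadjusted) without replicate 2 and 0.0752 (exact permutation p = 0.952) without replicate 1. The other 3 ratios did not pass the test between the genotypes after TAC, with exact permutation p of 0.162 to 0.990. Without wild type TAC replicate 2, the Myl7 to Myl2 difference was -1.26 (exact permutation p = 0.0397, unadjusted).

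After sham, no member passed the test between knockout and wild type (edgeR, 0 of 8, against 0.126% of all tested genes). None had an unadjusted p under 0.05 by edgeR, DESeq2 or limma voom, against 11.3% of all tested genes by edgeR. With 2 libraries a side, ranges were separate for 3 members, Myh7b and Myl3 higher and Mylk3 lower in knockout, beside 53% of all tested genes. No member passed the test for an interaction of genotype and surgery (edgeR, 0 of 8, against 0% of all tested genes; DESeq2 and limma voom also 0 of 8). By edgeR, none had an unadjusted p under 0.05, against 4.08% of all tested genes.

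Of 11 other heavy chain genes 5 were tested, with a median log2 fold change of 0.42 averaged over genotypes against 0.00 for all genes. Of these, 3 were higher, against 12.7% of all tested genes: Myh9 by 0.42 and Myh10 by 0.50, the non-muscle myosins IIA and IIB, and Myh8, the perinatal skeletal form, with group means of 0 to 0.294 CPM, which entered the test only through 2 TAC libraries (edgeR adjusted p = 0.00433, 0.00269 and 0.0483). For that reason the place of Myh8 in this count and median is no support for a difference. Of 11 other light chain and kinase genes 10 were tested, and 4 were higher and 1 lower, against 12.7% and 11.6% of all tested genes. The 4 with the smallest p were Myl12a, up by 0.48, and Myl6, up by 0.64, both light chains of non-muscle and smooth muscle myosin, Mylk2, the skeletal muscle kinase, with group means of 0.0213 to 0.893 CPM, which entered the test only through 6 TAC libraries, and Myl1, the fast skeletal essential light chain, up by 0.72 (edgeR adjusted p = 0.000664, 0.00367, 0.0125 and 0.0185). The place of Mylk2 among the higher genes is likewise no support for a difference. The 1 lower gene, named after its values were seen, was the kinase gene Mylk4, which fell by 1.44 on average (edgeR adjusted p = 0.0274). It was at 174 ± 20.1 CPM after sham and 55.2 ± 33.2 after TAC in wild type mice (SD, n = 2 and 6), and at 202 ± 27.5 and 86.4 ± 19.1 in knockout mice (SD, n = 2 and 4). After TAC, Myh14 was lower in knockout than in wild type mice by 0.46 on the log2 scale (edgeR adjusted p = 0.0204).

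Among regulators of the heavy chain genes more fell than rose. Of 19 tested, 7 were lower and 1 higher after TAC in wild type mice, 3 lower in knockout mice, and 8 lower and 1 higher on average, where the median was -0.16. Over all tested genes, 5.8% were lower and 6.36% higher in wild type mice, 1.73% lower in knockout mice, and 11.6% lower and 12.7% higher on average. Tbx5, a cardiac T-box factor, fell by 0.78, Mef2a by 0.41, and the thyroid hormone receptors Thrb and Thra by 0.70 and 0.30 on average (edgeR adjusted p = 0.000196, 0.000662, 0.00102 and 0.00282). Thyroid hormone is known to activate Myh6 and repress Myh7. Dio2, the deiodinase that makes active thyroid hormone, was the 1 that rose, from 3.46 ± 0.555 to 12.1 ± 5.55 CPM in wild type mice (SD, n = 2 and 6; edgeR adjusted p = 0.0321). None of the 19 passed between genotypes after TAC or sham by edgeR.

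Of 12 tested genes for myosin folding, light chain phosphatase and myosin turnover, 5 were lower and 2 higher on average, against 11.6% and 12.7% of all tested genes, with a median of -0.12. The 4 with the smallest p were all lower: Fbxo32, a muscle ubiquitin ligase subunit, by 0.47, Ppp1r12b, the regulatory subunit of striated muscle myosin phosphatase, by 0.41, Unc45b, a myosin chaperone, by 0.30, and Trim55, a ubiquitin ligase of the sarcomere, by 0.35 (edgeR adjusted p = 0.00109, 0.00439, 0.00511 and 0.00759). Thus the transcripts of the kinase Mylk3 and of the phosphatase subunit Ppp1r12b were both lower after TAC.

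Among 9 tested thick filament and M-band partners, only Mybpc2, the fast skeletal form of myosin binding protein C, rose, by 1.16 in wild type and 1.40 in knockout mice (edgeR adjusted p = 0.0117 and 0.00759). Over all tested genes, 6.36% were higher in wild type and 2.36% in knockout mice. Mybpc2 was also lower by 0.61 in knockout than in wild type mice after TAC (edgeR adjusted p = 0.0387), as was Obsl1, a cytoskeletal linker, by 0.32 (edgeR adjusted p = 0.0194). Of 5 thin filament reference genes, Tnnc1, cardiac troponin C, rose by 0.31 after TAC on average and Tnni3, cardiac troponin I, was higher by 0.49 in knockout mice after TAC (edgeR adjusted p = 0.0251 and 0.0462). Over all tested genes, 12.7% were higher after TAC on average. Between genotypes after TAC, 3.71% were higher and 5.63% lower in knockout mice. In lists this short, a single gene passing is not a result about the list.

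Markers of other cell types differed between the groups in which the light chains were compared. Fibroblast markers summed to 1784 and 2037 CPM in wild type sham, 2958 to 9429 in wild type TAC, 1583 and 1698 in knockout sham and 2072 to 3608 in knockout TAC. After TAC, 4 of 7 were lower in knockout than in wild type mice, namely Pdgfra (-0.69), Tcf21 (-0.91), Dpt (-0.54) and Dcn (-0.47) on the log2 scale (edgeR adjusted p = 0.000877, 0.00139, 0.00289 and 0.0336). Macrophage markers summed to 153 and 158 CPM in wild type sham, 191 to 332 in wild type TAC, 152 and 155 in knockout sham and 152 to 214 in knockout TAC, with 4 of 5 lower in knockout mice after TAC. Over all tested genes, 5.63% were lower in that comparison. The part of fibroblast and macrophage markers in the differences of Myl2, Myl3 and Mylk3 was not tested. Ventricular cardiomyocyte markers were present in every group, with group medians of 1097 to 1248 CPM. Averaged over genotypes 1 of 7 rose and 1 fell, against 12.7% and 11.6% of all tested genes. These were Lmod2, a thin filament length regulator, by 0.38, and Kcnj2, an inward rectifier potassium channel, by 1.13 (edgeR adjusted p = 0.0232 and 0.000196). Between knockout and wild type mice after TAC, 1 of 7 was higher, the ventricular factor Irx4 by 0.33, and 1 lower, Irx3 at -0.58 on the log2 scale (edgeR adjusted p = 0.0313 and 0.0352). Over all tested genes, 3.71% were higher and 5.63% lower in that comparison. Irx4 had also fallen by 0.36 after TAC in wild type mice (edgeR adjusted p = 0.0430). None of the 5 endothelial or 8 smooth muscle markers passed for TAC against sham by edgeR in any of the 3 comparisons. Their levels were not alike between genotypes. Smooth muscle markers summed to 639 and 730 CPM in wild type sham and 1019 and 1258 in knockout sham. After TAC the sums were 538 to 1178 and 859 to 1098 CPM. Endothelial markers summed to 593 to 1007 CPM in wild type TAC and 836 to 1022 in knockout TAC. The part of these markers in the light chain differences was not tested either. Skeletal muscle markers summed to 146 to 213 CPM over the sham libraries and 173 to 596 over the TAC libraries. Nearly all of this sum was Myl1, at 143 to 211 CPM after sham and 168 to 581 after TAC. Tnnt3 reached 11.4 CPM in 1 library, and every other marker of the list stayed at or below 1.41 CPM. Of 13 skeletal markers 5 were tested, and Myf6 was listed at 0 throughout. Myl1 and Myh8 were higher on average, as given above, against 12.7% of all tested genes. Myh8 entered the test only through TAC libraries, so its place here is no support for a difference.

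Across the 14 libraries the members did not vary as 1 block. On log2(CPM + 0.5), Myl2 and Myl3 ran together (Pearson r = 0.96), and so did Myl4 with Myl7 and Myh6 with Mylk3 (0.76 and 0.77). Myh6 ran against Myl4 (-0.67) and Myh7 (-0.54). These correlations describe libraries that differ in surgery, genotype and composition, and neighbouring values share the same scaling. Of the 13433 tested genes whose mean reached 1 CPM, those most like Myh7b were Rnf207 (0.98), Coro6 (0.98) and Vegfa (0.97). The ventricular light chains shared Tnni3 among their nearest 3 genes, at 0.95 with Myl2, beside Mgst3 and Gm45670, and at 0.97 with Myl3, beside Mrps9 and Klhdc8a. Nearest to Mylk3 were Aplp2, Bhlhb9 and Phkb (0.98, 0.97 and 0.97), and to Myh6 Gm13910, Pfkm and Dcaf8 (0.96 each). The nearest genes to Myh7 were more distant, Npl, Cbx6 and Il21r (0.87, 0.85 and 0.85), as were those to Myl4, Tspan8, Gm15564 and Prrg2 (0.89, 0.87 and 0.87). For Myl7, with at most 24 counts a library, they were Cfdp1, Pde6d and Kctd5 (0.92, 0.84 and 0.84).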

How the data were processed

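The authors deposited raw read counts per gene, whole numbers without normalization, for 14 ventricular libraries. Per the submitters' processing notes, FastQC, HISAT2 2.1.0, featureCounts and edgeR were used on GRCm38; the sources used here do not state their roles, the annotation release or the use of strand. Samples were grouped by the labels' genotype and treatment. All tests were run on the deposited counts in R 4.3.3 with edgeR 4.0.16 (filterByExpr, TMM, a robust quasi-likelihood fit of the 4 group means over all libraries, Benjamini-Hochberg adjustment over all 15876 genes, threshold 0.05). Libraries of a group all differed by more than sampling noise (chi-square per degree of freedom 4.55 to 176 over 23 pairs), so each counted as 1 replicate.

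Isoform ratios were log2 of counts, with 0.5 added to each, tested by exact two-sided permutation over libraries and adjusted over 24 tests (4 ratios, 6 comparisons). Lengths and positions came from GENCODE M21, using for each gene the transcript that GENCODE numbers lowest. Alternatives were limma voom (limma 3.58.1), DESeq2 1.42.0, other scaling, filters and fits, and leaving out each library. The edgeR fit was tested on simulated data.

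The members and gene lists were chosen with earlier results of these data known. The text names all members, Ccl24, the 3 genes most correlated with each member, and from each list up to 4 genes with the smallest p in a comparison where any passed. Mylk4, Dio2, Sln, Bmp10, Tnnt3 and Myf6 were named outside this rule. RNAs at the heavy chain loci were named from the annotation.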

Additional observations from a re-analysis of the deposited data

Results flagged for a closer look

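Among 24 sets of member levels and isoform ratios in groups of 4 or 6 libraries, 1 value stood far from the others of its group: Myl3 in knockout TAC replicate 2, at 6222 CPM against 6549 to 6588 CPM in the other 3 libraries. Its gap to the nearest library was 0.894 of the range of the group, above the 95% critical value of 0.829. Chance gives such a value in about 1 of 20 groups. Myl3 in wild type TAC ranged more widely, from 4351 to 6555 CPM.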

How the results depend on the processing

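The number of members passing, 1 for TAC against sham in each genotype, 4 averaged over genotypes and 0 for knockout against wild type after TAC, was within 1.5 times under other size factors, a filter of 1 CPM (which removed Myl7) and without mitochondrially encoded genes. In knockout mice, DESeq2 and the fit of only the 2 groups compared each passed 2 (Myl4 and Mylk3). For knockout against wild type after TAC, limma voom passed 1, DESeq2 2 and the fit without a filter 1. With 1 library left out, the numbers ran from 0 to 2 in wild type mice, 0 to 2 in knockout mice, 1 to 5 on average and 0 to 2 between genotypes after TAC. Over all genes, calls went from 1930 to 736 in wild type TAC against sham and from 1483 to 783 between genotypes after TAC when only the 2 groups were fitted. In knockout mice they went from 648 to 1342 with DESeq2 and 1458 with the 2 groups. With 1 library left out, wild type calls fell to 4 and 0 without sham replicates 1 and 2 (2852 and 2627 genes with an unadjusted p under 0.05 by edgeR) and to 1256 without TAC replicate 4. Knockout calls were 1 and 183 without knockout sham replicates 1 and 2, 200 and 374 without knockout TAC replicates 2 and 5, and 1361 without wild type TAC replicate 7. Averaged calls fell from 3848 to 1427 without knockout sham replicate 1 and to 2006 and 1828 without wild type sham replicates 1 and 2. Between genotypes after TAC they were 606, 451 and 302 without knockout TAC replicates 2, 4 and 5, 951 without wild type sham replicate 2, 657, 669 and 972 without wild type TAC replicates 3, 4 and 6, and 2939 without wild type TAC replicate 1. The shares of all genes called, given beside the members' counts, move with them. DESeq2 gave 2351 between genotypes after TAC. After sham, 20 calls became 147 with DESeq2, 1158 with the 2 groups and 44 without a filter, and the interaction went from 0 to 6 and, without a filter, 3.

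Over 13 pairs of libraries with the same replicate number, deviations from the group means correlated at -0.244 to 0.108, with 1 pair over 0.1. In the sham groups of 2 libraries the deviations are mirror images, so this check cannot exclude a pairing by number. With the replicate number as a block, 0 members passed in wild type mice and 1 on average (Mylk3), and over all genes 22 passed in wild type mice, 367 in knockout mice, 1478 on average and 45 between genotypes after TAC. The block turned the sign of log2 differences near 0: Myh6 and Myh7 between genotypes after TAC (-0.0995 and 0.0283), Myl2 in wild type mice and on average (0.00918 and 0.0519) and Myl3 likewise (0.0610 and 0.0510).

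With 1 library left out, the log2 difference between genotypes after TAC ran from -0.0407 to 0.11 for Myh6 and from -0.13 to 0.0641 for Myh7. For TAC against sham it ran from -0.18 to 0.35 for Myl2 in knockout mice, from -0.20 to 0.0681 for Myl2 on average and from -0.0735 to 0.0912 for Myl3 in knockout mice. The interaction for Mylk3 ran from -0.28 to 0.12. For the Myh7 to Myh6 ratio the ranges were 0.61 to 0.90 for TAC in wild type mice, -0.22 to 0.0735 between genotypes after TAC, -0.33 to 0.15 after sham and -0.23 to 0.25 for the interaction. The Myl4 to Myl3 ratio ran from 0.52 to 0.93 for TAC in wild type mice, 0.73 to 0.94 on average and -0.17 to 0.16 between genotypes after TAC. The Myl7 to Myl2 ratio ran from 1.81 to 3.304 for TAC in wild type mice, -1.29 to -0.62 between genotypes after TAC, -1.96 to 0.24 after sham and -1.17 to 1.03 for the interaction. The Mylk3 to Myl2 ratio ran from -0.50 to -0.37 for TAC in wild type mice, -0.91 to 0.0232 after sham and -0.86 to 0.0752 for the interaction. With group medians, the interaction of the Myh7 to Myh6 ratio was -0.0751 and the Myl4 to Myl3 difference between genotypes after TAC 0.0240. As percentage points of the share, that interaction was -0.37. The wild type TAC differences were 0.00831 for Myl7 (exact permutation p = 0.107 against 0.0357) and -1.81 for Mylk3 (0.0357 against 0.0714). The cause of these changes was not tested.

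After seeing the data, 2 alternatives were added: lengths of all annotated exons, and Myh7 counts less those of its antisense genes. Depth limits Myl7 and the microRNA loci, where single counts move the value, and groups of 2 sham libraries limit the TAC comparisons.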
